A study of Sus scrofa with 12 samples.

Results

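The RNA described is ENSSSCG00000048037, a transcript of pig chromosome 3 that was detected on chromatin across the genome in skeletal muscle. It was chosen by name as an RNA whose chromatin bins lie mainly on other chromosomes, and it is 1 of 1122 RNAs listed in at least 1 of 4 GRID-seq libraries. Because it was selected on that spread, its share of signal on other chromosomes is given as a description with no test. The samples were longissimus muscle of 2-week-old piglets of the Large White breed (LW), a commercial lean pig, and the Meishan breed (MS), a local Chinese pig, with no treatment or engineered allele in either. GRID-seq ligates RNA to nearby DNA in fixed nuclei, so each sequenced pair joins a piece of RNA to the DNA it lay next to. BL-HiChIP joins DNA ends through a bridge linker and enriches them with an antibody to H3K27ac, a histone modification found at promoters and enhancers in use. Each assay had 2 libraries per breed, numbered 1 and 2. The study's methods name 2 male piglets for the breeds, without saying whether this number is per breed or in all. Whether the 2 libraries of a breed came from different animals is thus not given in the sources used here, so all p-values measure only the spread between these libraries.

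Most chromatin-associated RNAs (caRNAs) are nascent transcripts that are still tethered to their own gene. A smaller class leaves its gene and contacts DNA on other chromosomes, as the long non-coding RNAs (lncRNAs) of nuclear speckles are known to do at actively transcribed genes. Contacts within 10 kb of the gene are called local below, contacts elsewhere on chromosome 3 cis, and contacts on other chromosomes trans.

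The gene of ENSSSCG00000048037 is given as chr3:53631433-53653180 in Sscrofa11.1, 21.748 kb on the minus strand. The RefSeq table used for gene positions holds no entry under this identifier. It does hold a lncRNA gene, LOC102163181 (chr3:53647051-53668630), that shares 6130 bases with it, but the table gives no strand, so the pair may be the same transcription unit or not. The nearest protein-coding genes were PDCL3, a phosducin-like chaperone gene 28.618 kb away, NMS, which encodes the neuropeptide neuromedin S, at 94.369 kb, and the circadian transcription factor gene NPAS2 at 141.058 kb. Of these neighbours only LOC102163181 overlapped it.

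The GRID-seq lists held 519 to 681 RNAs and 7172517 to 9943666 RNA reads per library. The muscle genes TTN, NEB, CKM, TNNT3 and ATP2A1 were listed in all 4 libraries, which is 5 of 10 muscle markers. ACTA1, RYR1, MYH1, MYH2 and MYH4 were not listed under their symbols, and 0 of 6 markers of liver, heart atrium, lung and kidney were listed. An RNA missing from a list is not shown to have no reads.

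ENSSSCG00000048037 was among the most abundant caRNAs in every library. It had 326748 and 417569 reads in LW replicates 1 and 2, against 380519 and 547164 in MS replicates 1 and 2, which ranked it 3 by reads in each list, with no correction for gene length. As a share of the reads of all listed RNAs, these were 3.99% and 4.20% in LW against 5.31% and 5.83% in MS. The share was higher in both MS libraries than in both LW libraries. In bulk tissue, fewer cells of a type and less RNA per cell cannot be told apart. In edgeR's quasi-likelihood test over the 308 RNAs listed in all 4 libraries, its reads fell by 0.48 on the log2 scale in LW relative to MS (SE 0.12 from the test statistic, Benjamini-Hochberg adjusted p = 0.0180). That test called 267 of the 308 RNAs at an adjusted p under 0.05, a background of 86.7%, and 42.5% were called as higher in MS. With so many RNAs called, its call does not set it apart. ENSSSCG00000048037 ranked 258 of 308 by p, a rank that was 129 with list totals in place of TMM and 26 with the replicate number as a block. Without LW replicate 1 the adjusted p was 0.109, with LW lower by a log2 value of -0.38.

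Its number of DNA bins varied far more than its reads. The lists gave 75846 and 143343 bins of 1 kb in LW replicates 1 and 2, against 154002 and 230814 in MS replicates 1 and 2, or 9.86% to 23.5% of all pairs of RNA and bin listed in a library. LW replicate 1 was the lowest and MS replicate 2 the highest, and the breeds did not overlap. Per 1000 reads of the RNA the lists held 232 and 343 bins in LW against 405 and 422 in MS. Within each breed the library with more RNA reads on the whole list also had more bins of this RNA. The part of sequencing depth in the number of bins was not tested.

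**Figure D1:**
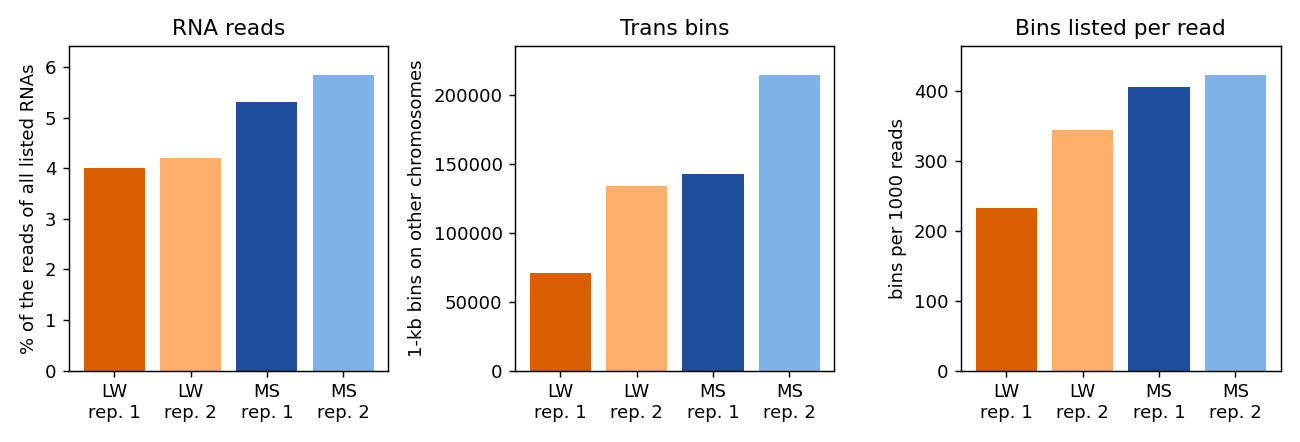
Bars give the value of ENSSSCG00000048037 in each of the 4 GRID-seq libraries for its share of the RNA reads on the list (%), its 1-kb bins on other chromosomes (count) and its bins per 1000 reads. The trans bins rise from 70630 in LW replicate 1 to 214480 in MS replicate 2, a wider range than that of the reads, which lie between 3.99% and 5.83% of the list.

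Nearly all of its signal was in trans. The deposited signal of a bin is corrected for background by the authors and starts at 0.02. It was taken as relative to the reads of the RNA itself. Trans bins carried 89.8% and 93.3% of the summed signal in LW and 91.5% and 92.1% in MS and lay on all 18 other chromosomes, Y not counted. Most DNA lies there too, since chromosome 3 spans 132.837 Mb and the other autosomes 2132.69 Mb. Per Mb, chromosome 3 with its local bins had 1.93 and 1.23 in LW and 1.57 and 1.45 in MS, relative to the mean of other chromosomes. The trans share is thus not read as a preference for other chromosomes. Cis bins carried 6.63% to 7.21%, and local bins 3.57% and 0.0365% in LW against 1.25% and 0.686% in MS. The trans and cis shares varied little between libraries, whereas the local share ranged widely, with both extremes in LW.

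The bins were not isolated. They formed 2769, 4916, 4902 and 7277 contiguous stretches in the LW pair and then the MS pair, with a median length of 26 to 29 kb. The shortest stretch of any library was 20 kb and the longest 202 kb. Neighbouring bins therefore share signal and are not independent measurements. Whether the authors' processing set the length of the stretches was not tested.

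At its own gene the RNA had a sharp peak in 3 of the 4 libraries. On the bin chr3:53639001-53640000, which lies inside the gene, the signal reached 242 in LW replicate 1 but 0.342 in LW replicate 2, and it reached 154 and 110 in the MS libraries. In the 3 libraries with the peak the signal fell in straight lines on both sides to between 0.744 and 3.06 at 10 kb from that bin. LW replicate 2 had no peak there, and its largest signal on any bin of the gene was 3.09. No other RNA was listed on this bin in the 3 libraries that had the peak. The triangle made up 3.50% of the RNA's signal in LW replicate 1, against 1.18% and 0.634% in the MS libraries. The library with the fewest bins thus had the tallest local peak, and the peak's part of the signal was small in each library.

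Local peaks were also seen for other RNAs with over 10000 trans bins in every library. ENSSSCG00000048856, an RNA of chromosome 2, had a largest local signal of 675 and 550 in LW against 615 and 510 in MS, on bins of its own gene. TTN, the RNA of the giant sarcomere protein titin, had 204 and 177 in LW against 127 and 112 in MS. ENSSSCG00000044834, an RNA of chromosome 7, had no listed bin within 10 kb of its gene in any library. LW replicate 2 held the local peaks of ENSSSCG00000048856 and TTN, so the missing peak of ENSSSCG00000048037 in that library was not shared by these RNAs.

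Outside the gene there was no gradient along chromosome 3. Between 10 and 100 kb from the gene, no bin was listed in either LW library, 3.89% of bins in MS replicate 1 and 16.7% in MS replicate 2. At 1000 to 5000 kb the signal per Mb was 36.6 and 42.6 in LW against 51.0 and 95.9 in MS. Beyond 20000 kb it was 38.0 and 57.3 in LW against 70.7 and 94.1 in MS. The other autosomes had 28.5 and 47.2 per Mb in LW against 54.5 and 71.7 in MS, so DNA of chromosome 3 beyond 20000 kb carried more signal per Mb than the average of other autosomes in each library. That average was not matched for gene density, and chromosome 3 has 9.86 protein-coding genes per Mb. Over the other autosomes the signal per Mb rose with that density, as given below. Closer bands of chromosome 3 did not exceed the average throughout. The band of 1000 to 5000 kb was below that average in LW replicate 2 and MS replicate 1, and the band of 5000 to 20000 kb was below it in LW replicate 1 (23.8), with 51.5 in LW replicate 2 and 71.1 and 79.4 in MS.

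**Figure D2:**
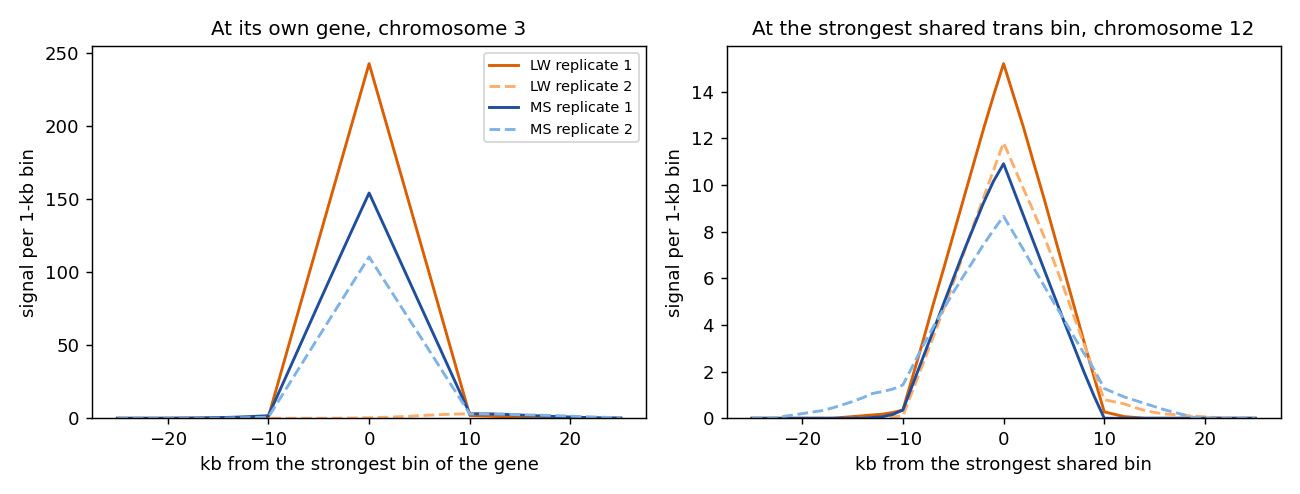
Lines give the signal per 1-kb bin (linear axis) against the distance in kb from the strongest bin of the gene on chromosome 3 (left) and from the strongest bin shared by the 4 libraries on chromosome 12 (right), for each library. The left peak reaches 242, 154 and 110 and is missing in LW replicate 2, and the right peak is present in all 4 libraries at 8.66 to 15.2.

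The trans signal was uneven between chromosomes. Expressed per Mb and relative to the mean of all other chromosomes, chromosome 12 was the highest in every library, with 1.88 and 2.05 in LW against 2.33 and 2.85 in MS. Chromosome 6 had 1.43 and 1.36 in LW against 1.42 and 1.27 in MS. By the mean over libraries, the lowest autosomes were chromosome 8 (0.698 and 0.731 in LW, 0.601 and 0.578 in MS) and chromosome 16 (0.600 and 0.688 in LW, 0.631 and 0.695 in MS). Chromosome 11 had 0.774 and 0.896 in LW against 0.500 and 0.661 in MS, and was the lowest autosome of MS replicate 1. Chromosome X had only 0.246 and 0.177 in LW against 0.173 and 0.213 in MS. Chromosome 12 has the most protein-coding genes per Mb of these chromosomes (18.2), and chromosomes 16 and 8 have 4.32 and 4.94.

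Over the 17 other autosomes the relative signal per Mb had a Pearson correlation with the number of protein-coding genes per Mb of 0.903 and 0.826 in LW against 0.889 and 0.848 in MS. These are descriptions over chromosomes, which share a library and its depth. Chromosome X had 6.05 protein-coding genes per Mb, close to chromosome 13 (6.04), whose relative signal was 0.830 to 1.02. The low value of chromosome X was therefore not matched by an autosome of like gene density. The piglets were male, and the signal per Mb was not corrected for the number of copies of a chromosome. The part of copy number in the low value of chromosome X was not tested.

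For 8 of the 18 other chromosomes (44.4%) the 2 libraries of one breed lay above both libraries of the other. Chromosomes 12, 14 and 2 were higher in MS, and chromosomes 5, 1, 15, 11 and 8 were higher in LW. With 2 libraries per breed an exact permutation test of 1 value cannot go below p = 0.33, so none of these could be called.

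**Figure D3:**
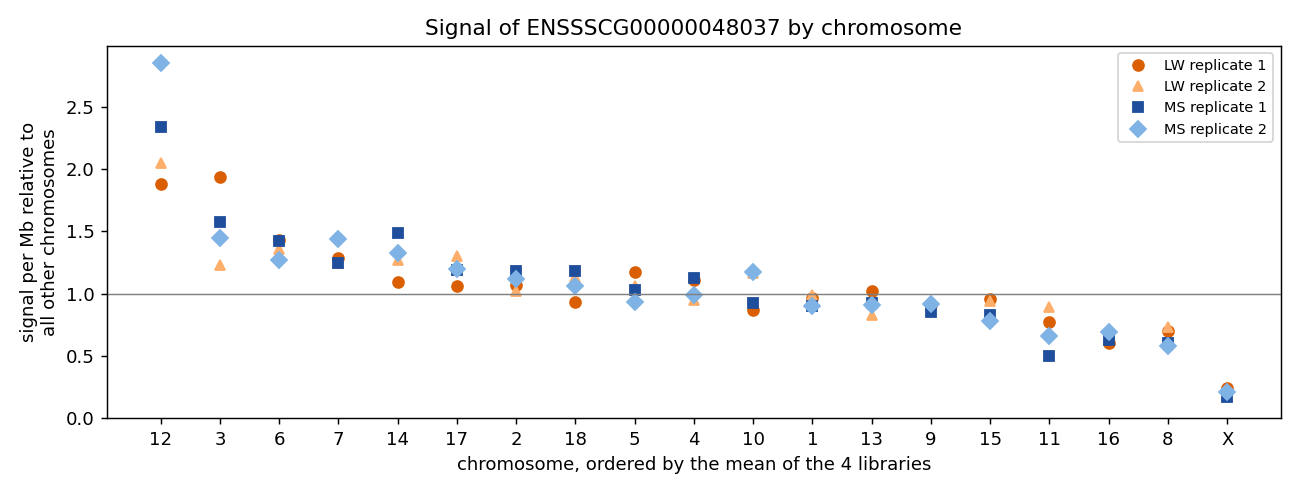
Points give the signal of ENSSSCG00000048037 per Mb of each chromosome relative to the mean of all chromosomes other than its own (grey line at 1), for the 4 libraries. Chromosome 12 lies at 1.88 to 2.85, its own chromosome 3 at 1.23 to 1.93, and chromosome X at 0.173 to 0.246.

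At the scale of 1 Mb no window was called as different between the breeds. Limma tested 1964 windows on other chromosomes, each as parts per 10000 of the RNA's trans signal on the log2(parts + 0.5) scale, and called 0 of them, a background of 0%, with a smallest adjusted p of 0.511. At an unadjusted p under 0.05 there were 149 windows, 103 of them higher in MS and 46 higher in LW. Single libraries moved this count and its direction. There were 17 such windows without MS replicate 1 (14 higher in LW), 71 without MS replicate 2 (69 higher in LW), 366 without LW replicate 2 (334 higher in MS) and 148 without LW replicate 1 (127 higher in MS). The window of smallest p, chr12:33000001-34000000, held 0 parts in both LW libraries and 25.6 and 19.2 parts in MS. Next among those higher in MS were chr2:103000001-104000000, with 0 in LW and 11.4 and 12.2 in MS, and chr16:18000001-19000000, with 0 in LW and 6.04 and 8.70 in MS. Windows with more in LW were chr13:128000001-129000000 (12.6 and 7.29 parts), chr8:99000001-100000000 (5.31 and 4.65) and chr4:70000001-71000000 (4.34 and 4.80), each with 0 parts in both MS libraries. All 6 windows had an adjusted p of 0.511.

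Individual bins were seldom repeated between libraries. Of 459674 trans bins listed in any library, 80.4% were in 1 library, 17.2% in 2, 2.26% in 3 and 0.153% in all 4. LW replicates 1 and 2 shared 11303 bins, 16.0% of the first and 8.45% of the second, and the MS libraries shared 34770, 24.3% and 16.2%. LW replicate 2 and MS replicate 1 shared 22971, which is 17.2% and 16.1%. Of all bins on these chromosomes, the lists held 3.13% and 5.92% in LW and 6.33% and 9.50% in MS. Divided by the share of all bins that the other library listed, the overlap was 2.70 for the LW pair and 2.56 for the MS pair. Between breeds it was 1.62 to 2.76. Over 1-Mb windows the correlation of log2 parts was 0.381 within LW, 0.560 within MS and 0.356 to 0.517 between libraries of different breeds (2265 windows). A pair from both breeds was thus in some cases more alike than a pair from 1 breed. The windows share base composition and mappability, so these correlations are descriptions.

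The 705 bins listed in all 4 libraries formed 65 stretches. Of them, 41.1% lay within 5 kb of a gene end, against 24.8% of bins listed in 1 library and 17.5% of all bins on these chromosomes. On H3K27ac loop anchors of any library lay 59.3% of them, against 29.9% of bins listed in 1 library and 14.8% of all bins. Over 100 kb from any gene lay 7.38% of them, against 5.35% of bins listed in 1 library and 12.1% of all bins. By share of bins, those in all 4 libraries were more often at gene ends, on loop anchors and in gene deserts than those found once. The 705 bins are neighbours within 65 stretches of a median length of 9 kb. Few stretches may thus carry any of these shares, and no tendency is read from them.

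The strongest bin common to the 4 libraries was chr12:12344001-12345000, within the gene body of CEP112, a centrosomal protein gene, and just past the end of AXIN2, a scaffold and target gene of Wnt signalling. Its signal was 15.2 and 11.8 in LW against 10.9 and 8.66 in MS. It was a triangle like that at the RNA's own gene, falling to between 0% and 16.5% of its height at 10 kb on either side. Its shape and width are likewise not read as a trait of the RNA. In each library 2 other RNAs were listed on this bin, and the largest of them had 2.87 (NEB) in LW replicate 1 and, in the MS libraries, 1.77 and 2.08 (both ENSSSCG00000044834). ENSSSCG00000048037 therefore had the largest signal of any listed RNA there, each relative to its own reads. The bin was the largest trans signal of both MS libraries.

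The next shared bin, chr9:63399001-63400000, had no gene within 220 kb and a signal of 5.12 and 4.71 in LW against 2.90 and 2.67 in MS. ENSSSCG00000044834 was listed there in all 4 libraries too, and in MS replicate 1 DSC2 had 12.1. The other strong shared bins lay in the genes MXI1, ANP32A, PRKAR1A, PER1, FSTL1 and CKM, at means of 1.86 to 2.37. In PER1 and CKM the listed RNA of the gene itself had a signal of 1923 to 2426 and 2393 to 5279, so these bins were ones where another RNA was at its own gene. The same held for the PRKAR1A bin in MS replicate 2, where the RNA of PRKAR1A had 929.7, and on the ANP32A bin of that library the RNA of SMAD3 had 37.9.

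Other strong peaks were seen in single libraries. The largest trans signal of LW replicate 1, 36.2 on chr5:90150001-90151000 in EEA1, an early endosome tethering protein gene, had no listed bin within 10 kb in LW replicate 2 or MS replicate 1 and at most 0.827 in MS replicate 2. That of LW replicate 2, 12.8 on chr1:43376001-43377000, was in no other library. Of the 10 strongest trans peaks of each library, 1 or 2 were seen within 10 kb in all other libraries, and 5 to 7 in none. A strong signal in 1 library was thus mostly not repeated in the other libraries.

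Genes with a known product were then ranked by the signal within 5 kb of either end. AXIN2 had 122 and 94.9 in LW against 88.8 and 74.3 in MS. CEP112 had 99.7 and 75.4 in LW against 74.0 and 64.2 in MS, but shares the chromosome 12 peak with AXIN2. After these came CKM, which encodes the muscle creatine kinase, with 15.3 and 23.4 in LW against 42.5 and 20.3 in MS. CKM and its neighbour MARK4, a microtubule affinity kinase gene (5.54 and 16.1 in LW, 38.1 and 25.1 in MS), lie side by side with overlapping windows, so they share bins.

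PRKAR1A, the regulatory subunit gene of protein kinase A, had 27.3 and 16.5 in LW against 28.4 and 23.5 in MS. ANP32A, an acidic nuclear phosphoprotein gene, had 21.0 and 16.1 in LW against 20.7 and 36.6 in MS, and RBM4, a splicing regulator gene, had 27.6 and 11.6 in LW against 36.8 and 16.4 in MS. VAMP2, a vesicle SNARE gene, had 28.5 and 21.5 in LW against 26.1 and 12.2 in MS, and PER1, a circadian repressor gene beside it whose window overlaps, 23.6 and 28.4 in LW and 24.3 and 8.11 in MS. EPB41, the gene of a membrane skeleton protein, had 3.33 and 15.0 in LW against 27.7 and 35.8 in MS. Of the 10 genes, 5 lay on chromosome 12, the chromosome of highest signal per Mb, and EPB41 and MARK4 had both MS libraries above both LW libraries, whereas AXIN2 and CEP112 had both below. Breeds that did not overlap were as common among the 104 named protein-coding genes with a bin in all 4 libraries (44 genes, 42.3%), so nothing is read from these 4.

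Few genes were reached in every library. A bin lay within 5 kb of an end for 9.83% and 17.7% of 26268 genes in LW and 21.4% and 25.4% in MS, and for 122 genes (0.464%) in all 4. Protein-coding genes were reached more often (11.3% to 28.5%) than lncRNA genes (8.11% to 22.3%) or pseudogenes (3.57% to 10.0%) in each library. Of 539 genes that were themselves listed as caRNAs, 27.1% and 40.6% were reached in LW and 57.7% and 34.7% in MS. This group was reached more often than all genes in each library, and MS replicate 1 had the highest share and LW replicate 1 the lowest.

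The lists of sarcomere, calcium handling and energy genes were reached more often than all genes (2582, 4658, 5634 and 6669 of 26268) in each library. Of 25 sarcomere genes measured, 10 and 14 had a bin in LW and 15 and 10 in MS, and 0 in all 4. Of 11 calcium handling genes, 3 and 6 were reached in LW and 10 and 4 in MS, and RYR1, the calcium release channel gene of the sarcoplasmic reticulum, was in all 4 (signal 1.71 and 12.3 in LW, 9.38 and 9.37 in MS). Of 13 genes of glycolysis and energy supply, 7 and 5 were reached in LW and 7 and 4 in MS, and CKM was in all 4. Of 11 myogenic factors, 2 and 4 were reached in LW and 7 and 2 in MS, a lower share than that of all genes in MS replicate 2 alone. The median over members of the mean signal was 7.34 for the sarcomere list, 4.69 for calcium handling, 7.95 for glycolysis and 3.18 for myogenic factors, against 0 for all genes.

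Of 15 genes of nuclear speckles and splicing, 1 and 6 were reached in LW and 6 and 8 in MS, with a median signal of 3.56. Of 7 adipocyte genes, 0 and 0 were reached in LW and 2 and 2 in MS, of 7 fibroblast genes 0 and 2 in LW and 0 and 2 in MS, and of 5 endothelial genes 0 and 0 in LW and 1 and 2 in MS. Of 4 immune genes 1 or 2 were reached, and of 8 neural genes 0 and 1 in LW against 1 and 1 in MS. Against the share of all genes, adipocyte genes were higher in both MS libraries, and fibroblast genes in LW replicate 2 and MS replicate 2. The immune share was above it in every library but MS replicate 2, and the nuclear speckle share in every library but LW replicate 1. The endothelial share was above it in MS replicate 2 alone, and the neural share in none. Shares above that of all genes were thus not limited to the muscle lists. The lists are small and were chosen with earlier results of these data known, so the counts are descriptions.

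Relative to genes the RNA favoured gene ends and avoided gene deserts. Within 5 kb of a gene end lay 27.8% and 28.8% of its trans signal in LW and 35.9% and 31.2% in MS, against 17.5% of bins, a ratio of 1.59, 1.65, 2.05 and 1.78. Over 100 kb from any gene lay 5.01% and 5.52% of the signal in LW and 2.95% and 4.48% in MS, against 12.1% of bins, a ratio of 0.415, 0.457, 0.244 and 0.371. All libraries were above 1 at gene ends and below 1 in deserts. The breeds did not overlap in either ratio (exact permutation p = 0.33, two-sided, the smallest this design allows). Counted as bins in place of signal, the breeds overlapped in both ratios, with 1.53, 1.57, 1.82 and 1.52 at gene ends and 0.369, 0.404, 0.233 and 0.378 in deserts (exact permutation p = 1 and 0.667).

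The signal was also concentrated on H3K27ac loop anchors, the 5-kb bins that a loop joins. Anchors of the same breed carried 31.5% and 30.9% of the trans signal in LW, where they cover 12.5% of bins, and 40.6% and 26.4% in MS, where they cover 10.5%. The ratios were 2.52, 2.47, 3.88 and 2.52. Anchors outside 5 kb of gene ends gave 2.29, 2.23, 3.29 and 2.05, so anchors away from gene ends carried more signal than their share of bins as well. MS replicate 1 stood above the other 3 libraries, and the difference between the breeds in this ratio, -0.70, was -0.028 without MS replicate 1 (exact permutation p = 0.33 with all 4 libraries and 0.667 without it).

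Anchors called in 1 breed only carried more signal than their share of bins in every library. Anchors called only in LW had ratios of 1.99 and 1.95 in LW, against 2.21 and 1.96 in MS. Anchors called only in MS had 2.04 and 2.09 in LW against 2.68 and 2.15 in MS. Anchors of both breeds had 2.80 and 2.74 in LW against 4.21 and 2.63 in MS. The breeds overlapped on LW-only anchors, whereas both MS libraries lay above both LW libraries on MS-only anchors (exact permutation p = 0.33, two-sided, the smallest this design allows). All 4 libraries had a higher ratio on MS-only anchors than on LW-only anchors, and anchors of both breeds were higher in every library than anchors of either breed alone. Ends of genes listed as caRNAs had the highest ratios, 5.10 and 4.63 in LW and 7.78 and 3.31 in MS.

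Anchors with more loops carried more of its signal. Relative to the trans average, anchors with 1 loop had 2.06 and 2.03 in LW replicates 1 and 2, against 3.10 and 2.35 in MS replicates 1 and 2. Anchors with 5 to 9 loops had 3.39, 3.21, 5.42 and 2.74, and anchors with 10 or more loops had 3.15, 3.60, 7.05 and 3.29. The rise was steepest in MS replicate 1, and in LW replicate 1 the anchors with 10 or more loops were not above those with 5 to 9. The share of anchors with a listed bin rose from 20.4% to 36.0% in MS replicate 1 but was 21.2% at both ends of the range in MS replicate 2.

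**Figure D4:**
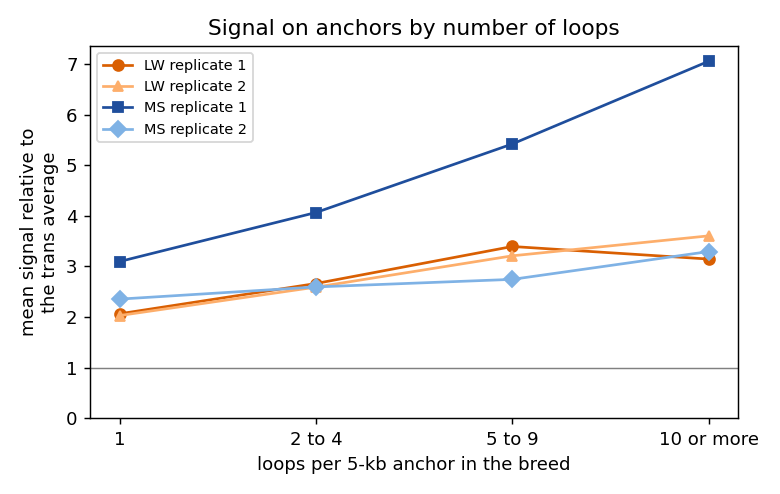
Lines give, for each GRID-seq library, the mean signal on 5-kb loop anchors relative to the average over other chromosomes (grey line at 1), with anchors grouped by their number of loops in the BL-HiChIP libraries of the same breed. The last group lies at 3.15 to 7.05, against 2.03 to 3.10 for anchors with 1 loop.

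Among the RNAs whose trans pattern was most like it were ENSSSCG00000048856 and TTN, with a mean Pearson correlation over 4 libraries of 0.392 and 0.245 across 1-Mb windows on neither RNA's chromosome (2113 and 2124 windows). For ENSSSCG00000048856 the correlation was 0.271 and 0.362 in LW against 0.490 and 0.446 in MS, and for TTN it was 0.0781 and 0.174 in LW against 0.381 and 0.347 in MS. Both were higher in the MS libraries. RNAs of 1 library share its depth and background correction, so these values are descriptions.

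ENSSSCG00000044834 had a different relation to it in the breeds. Its correlation with ENSSSCG00000048037 was -0.31 and -0.25 in LW against 0.30 and 0.26 in MS. Its ratio on loop anchors was 0.314 and 0.373 in LW against 2.77 and 2.57 in MS, and in gene deserts 1.93 and 2.19 in LW against 0.530 and 0.590 in MS. ENSSSCG00000048037 kept ratios above 1 on anchors and below 1 in deserts in both breeds. That difference between the RNAs was not tested.

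ENSSSCG00000048856 and TTN lay on the same side as ENSSSCG00000048037, but TTN was close to 1 in deserts in LW replicate 1. In deserts TTN had 0.995 and 0.815 in LW against 0.447 and 0.592 in MS. There ENSSSCG00000048856 had 0.243 and 0.305 in LW against 0.134 and 0.131 in MS. On loop anchors ENSSSCG00000048856 had 3.10 and 3.15 in LW against 4.69 and 4.85 in MS, and TTN 1.69 and 2.36 in LW and 2.10 and 2.32 in MS. ENSSSCG00000048037 was below ENSSSCG00000048856 and above TTN in each library. It had the highest trans share of these 3 RNAs in every library, since 66.3% to 82.3% of the signal of ENSSSCG00000048856 and 54.7% to 76.9% of that of TTN was in trans. ENSSSCG00000044834 had a higher trans share than ENSSSCG00000048037 in each library, with 93.9% and 94.3% in LW against 92.3% and 92.3% in MS.

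No H3K27ac loop was called at the gene itself. In all 4 BL-HiChIP libraries 0 loops had an anchor within 1 kb of either gene end, and 0 within 10 kb. The nearest anchor was 16.82 and 36.82 kb away in LW and 116.432 and 121.432 kb away in MS. Both LW anchors were on the side of PDCL3, at chr3:53670001-53675000 and chr3:53690001-53695000, whereas the nearest MS anchor on that side was at 966.82 kb. Only 1 loop, in LW replicate 1, spanned the gene. By the same rule 36.2% to 46.2% of 28073 genes and 28.7% to 37.9% of 5399 lncRNA genes had a loop at an end in a library, so a gene without a loop was common. The loop score was 0 in each library and was not tested.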

How the data were processed

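The authors fixed nuclei, ligated RNA to DNA through a linker (GRID-seq) or DNA to DNA (BL-HiChIP), mapped the reads to Sscrofa11.1 and deposited 1 list per library. Tools named in the submitters' processing notes include Bowtie2 2.2.5 and SAMtools 1.9. The deposited GRID-seq lists have no column names. Of their numbers, the deposited integer of each RNA was taken as its count of reads. The deposited decimal of each bin was taken as the signal left after background correction by the authors, relative to the reads of the RNA. Both readings rest on the values. The deposited p-value of a loop is an FDR. Depth was 7172517 to 9943666 listed reads.

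Repeated pairs were summed. Genes were placed with RefSeq (Sscrofa11.1), given without strand, so both gene ends were used. Reads were tested with edgeR, without a block, in the RNAs listed in all 4 libraries, and windows with limma, pseudocount 0.5. Both tests were checked on simulated data. The simulated window differences were larger than those of the windows named above. That check thus does not show whether smaller differences would be found. Shares were compared by exact permutation. Versions were R 4.3.3, edgeR 4.0.16, limma 3.58.1, DESeq2 1.42.0, Python 3.11.15, pandas 2.3.3, scipy 1.17.1 and matplotlib 3.10.9. The RNA, the gene lists and the tests were chosen with earlier results of these data known. Named were the 3 most similar RNAs, the 10 coding genes of highest signal in all 4 libraries, 3 windows per direction, list members in all 4 libraries and RNAs with over 10000 trans bins in every library. The shared bins, single-library peaks and neighbouring genes were named after their values were seen. Alternatives covered normalization, filters, pseudocount, windows, anchors, a replicate block and leaving out each library. Sequences were not used here. For 1 RNA that met the naming rule, values are not reported here.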

Additional observations from a re-analysis of the deposited data

How the results depend on the processing

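By rules that differed between results, 53 of 54 alternative values were classed as the same as the main value, and 1 was not. Reads were judged by direction and side of the threshold, windows by the number called, and the loop score by staying at 0. The trans share was judged by lying within 1 standard deviation of the main value. The ratios at gene ends, in deserts and on anchors were judged by the sign of the LW minus MS difference alone. Their exact permutation p cannot go below 0.33, so no threshold could be crossed. The log2 difference in reads ranged from -0.61 to -0.34 when each library was left out, with adjusted p from 0.00485 to 0.109, and it was not called without LW replicate 1 (-0.38), where an arm has 1 library that is assumed to vary like the others. The cause was not tested. With DESeq2 it was -0.48 (adjusted p = 0.00819), and list totals in place of TMM gave -0.44 and called 167 of 308 RNAs in place of 267. No window was called under any alternative, and the smallest adjusted p ranged from 0.0902 to 1.00. The trans share was 91.2% to 92.3% when each library was left out. The LW minus MS difference of the ratio ranged from -0.43 to -0.16 at gene ends, from 0.065 to 0.19 in deserts and from -1.38 to -0.028 on anchors.

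With the replicate number as a block the reads differed by -0.47 (edgeR adjusted p = 1.58e-154, 1 residual degree of freedom) and 0 windows were called. The common biological coefficient of variation of that fit was 1.06%, against 8.29% without the block, so its p measures little beyond counting error. Its dispersions were held at 0.00011 or above, since below 1e-04 the deviance that edgeR computes was wrong at these counts. The labels do not say that equal numbers pair libraries. Deviations of libraries with the same number had a correlation of 0.939 over reads and 0.0175 over windows, and 2 pairs do not settle whether the numbers pair them. The normalization, pseudocount, block and left-out library alternatives of the loop score were not run, since every value was 0. The 4 libraries, the floor of 0.02 on listed signal and the unknown origin of replicates limit all comparisons.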
